A study of Mus musculus with 764 samples.

Results

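Transcripts of 8 genes that mark or set the choice between the CD4 and the CD8 T-cell lineage were followed in single IL-10-producing CD4+ T cells of the mouse small intestine (SI) and spleen (Sp). They were the co-receptor genes Cd4, Cd8a and Cd8b1, the transcription factor genes Zbtb7b, Runx3 and Gata3, and the surface receptor genes Cd7 and Cd244, 8 of 23997 gene rows. The genes were picked by name with earlier results of these cells in view, among them the levels in both tissues and the contrast by Cd8a reads, so the values are a description and no test was run. Cells came from IL-10eGFP Foxp3mRFP reporter mice, young adult littermates, all given anti-CD3, an antibody that activates T cells through their receptor complex, by repeated intraperitoneal injection. Cells were sorted singly as CD4+ and IL-10eGFP+, with Foxp3+ regulatory T cells included. No untreated or IL-10-negative cells were analysed here. The number of mice is not given, and although the study isolated both intraepithelial and lamina propria lymphocytes, the sources used here do not say which of them these gut cells were. Each library is 1 cell and no animal is named, so each tissue counts as 1 sample and no comparison has a replicate check.

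CD4 and CD8 are co-receptors that bind MHC class II and class I respectively, and mature T cells usually keep one of them. CD8 is made either as a heterodimer of the alpha chain (Cd8a) and the beta chain (Cd8b1) or as a homodimer of alpha chains. Zbtb7b encodes ThPOK, the factor that holds T cells in the CD4 lineage and represses CD8-lineage genes, while Runx3 silences Cd4 and Zbtb7b and favours the CD8 lineage and cytotoxic genes. Gata3 acts early in CD4 commitment, upstream of Zbtb7b, and later drives Th2 cells. In the gut epithelium, some CD4+ T cells are known to lose ThPOK, gain Runx3 and express CD8 alpha homodimers. CD7 is an immunoglobulin-family receptor common on intraepithelial lymphocytes, and CD244 (2B4) is a receptor of the SLAM family known from natural killer and cytotoxic T cells.

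Cd8b1 and Cd8a are neighbours on mouse chromosome 6 (GRCm38, GENCODE M21). Cd8b1 spans chr6:71322788-71337494 and Cd8a chr6:71373427-71379173, both on the plus strand with 35932 bases between them, and Cd4 lies on the minus strand at chr6:124864692-124888221. Zbtb7b is at chr3:89377644-89394776 (minus), Runx3 at chr4:135120652-135177990 (plus), Gata3 at chr2:9857078-9890034 (minus), Cd7 at chr11:121036747-121039418 (minus) and Cd244, named Cd244a in that annotation, at chr1:171559193-171609746 (plus). Promoter windows of RefSeq (GRCm38.p6), from 250 bases before to 50 bases after a transcription start, were matched for 5 of the 8 genes, in 7 windows: Cd8a, Zbtb7b, Runx3, Gata3 and Cd244. Cd8b1, Cd4 and Cd7 were not matched. The core of the Runx motif was searched as TGTGGT on either strand (ACCACA on the other), and 16.8% of all 32851 windows hold it. Among the 7 windows, 2 hold it. The window at Cd8a and the windows with a match at the 2 opposing factor genes are printed 5′ to 3′ on the gene's strand, with the Runx core letters in capitals.
Cd8a, chr6:71373177-71373476, plus strand, no match: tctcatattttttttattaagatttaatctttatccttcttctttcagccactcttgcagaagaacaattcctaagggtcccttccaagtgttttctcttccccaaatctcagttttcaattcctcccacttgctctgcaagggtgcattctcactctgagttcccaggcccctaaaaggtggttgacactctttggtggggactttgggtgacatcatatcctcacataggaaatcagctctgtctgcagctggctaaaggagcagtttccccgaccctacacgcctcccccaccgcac
Zbtb7b, second of its 2 windows, chr3:89387622-89387921, minus strand: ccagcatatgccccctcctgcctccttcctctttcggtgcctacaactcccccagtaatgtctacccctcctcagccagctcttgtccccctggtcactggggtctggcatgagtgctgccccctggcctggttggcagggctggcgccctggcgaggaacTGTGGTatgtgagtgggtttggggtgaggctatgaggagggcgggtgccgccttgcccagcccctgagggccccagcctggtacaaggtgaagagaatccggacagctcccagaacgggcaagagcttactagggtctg
Runx3, first of its 2 windows, chr4:135120395-135120694, plus strand: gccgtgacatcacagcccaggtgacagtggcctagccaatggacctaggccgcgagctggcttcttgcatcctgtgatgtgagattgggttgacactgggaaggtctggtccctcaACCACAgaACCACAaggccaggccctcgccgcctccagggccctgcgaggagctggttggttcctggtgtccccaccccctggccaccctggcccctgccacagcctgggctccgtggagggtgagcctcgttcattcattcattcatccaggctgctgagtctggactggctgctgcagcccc
The Runx3 window has 2 matches that do not overlap, whose first letters lie at -134 and -126 from the start, and the Zbtb7b window has 1 at -89. The other window of each gene and those of Gata3 and Cd244 have none, and no window of the 5 genes holds AGATAA, the Gata motif searched, which 11.2% of all windows hold. A match in these letters is a description of the sequence and not a measured binding site.

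Of 764 cells, 190 came from the SI, with 6659 to 580400 reads (median 314228), and the rest from the Sp, with 25799 to 622997 reads (median 340912). Cells with few reads or genes and cells in a dividing phase were set aside (53 SI cells), which left 400 Sp cells. The kept SI cells are the sum of the 27, 98 and 12 cells of the 3 Cd8a classes used further on. SI cells sat in well columns 13 to 24 of plate p2. Sp cells sat in the other columns of p2 (30.5% of kept Sp cells) and on p1, where columns 1-12 (33.2%) and columns 13-24 (36.2%) are taken as separate sets. Tissue and plate position cannot be told apart on p2, and the 3 Sp sets are each set against the same SI cells. Foxp3, the regulatory T-cell factor gene, passed 10 reads in 3.65% of SI and 24% of Sp cells, and the part of this difference in the tissue contrasts was not tested. Levels are CPM, reads of a gene per 1000000 reads on genes in a cell. A log2 ratio compares mean CPM after adding 1, so ratios of genes near 0 come out too small. Intervals beside shares of cells are exact 95% binomial (Clopper-Pearson) and those beside summed reads exact Poisson. They cover counting error alone, since reads copied by PCR carry no molecular identifier here.

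Cd4, the transcript of the protein used for sorting, was present in every kept cell and at like levels in both tissues. SI cells ranged from 15.5 to 5347 CPM with a median of 1293, and the 400 Sp cells from 6.06 to 8622 CPM with a median of 1259. Mean Cd4 was 1500 CPM in the SI, 1546 and 1589 CPM in p1 columns 1-12 and 13-24, and 1532 CPM in p2. The log2 ratio of SI over all Sp was -0.05, turning to 0.11 with TMM scaling, and at least 10 Cd4 reads were found in 99.3% of SI and 98.5% of Sp cells.

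Cd8a was a gut transcript in these cells and came in 2 levels, high or close to none. Cd8a averaged 489.4 CPM in the SI, 26.9 CPM in p1 columns 1-12, 0.0168 CPM in p1 columns 13-24 and 0.1 CPM in p2. At least 10 Cd8a reads were found in 27 SI cells (19.7%, 13.4 to 27.4) and in 1 of 400 Sp cells (0.25%, 0.00633 to 1.38). Among the 27 cells the level ran from 212.7 to 6839 CPM with a median of 2152, while 98 cells had no read. Above 10 reads the 2 tissues overlap through a single Sp cell, in p1 columns 1-12, which held 1545 of the 1558 Cd8a reads of the Sp. That cell had 3557 CPM of Cd8a, 2342 CPM of Cd8b1, 960.1 CPM of Cd4 and 354.6 CPM of Runx3, with no read of Zbtb7b, Cd7 or Cd244. The log2 ratio was 5.62 against all Sp, 8.91 against p1 columns 13-24 and 4.14 against p1 columns 1-12, the set that holds this cell.

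Cd8b1 did not follow Cd8a across tissues. Cd8b1 averaged 38.4 CPM in the SI and 53.3, 16.6 and 24.3 CPM in p1 columns 1-12, p1 columns 13-24 and p2. At least 10 Cd8b1 reads were found in 8 SI cells (5.84%, 2.55 to 11.2) and in 14.3%, 10.3% and 9.84% of the Sp sets. The ratio had no stable direction: the log2 value was 0.30 against all Sp, -0.46 against p1 columns 1-12 and 1.17 against p1 columns 13-24. It was -0.04 when the top cell of each tissue was left out and 1.10 when S and G2M cells were kept. In the Sp, 45 of the 46 cells with at least 10 Cd8b1 reads had no Cd8a read, and those 46 cells reached 11 to 1017 Cd8b1 reads with a median of 77. Zbtb7b passed 10 reads in 17 of these 46 cells (37%, 23.2 to 52.5) against 34.9% of Sp cells without a Cd8b1 read.

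**Figure D1:**
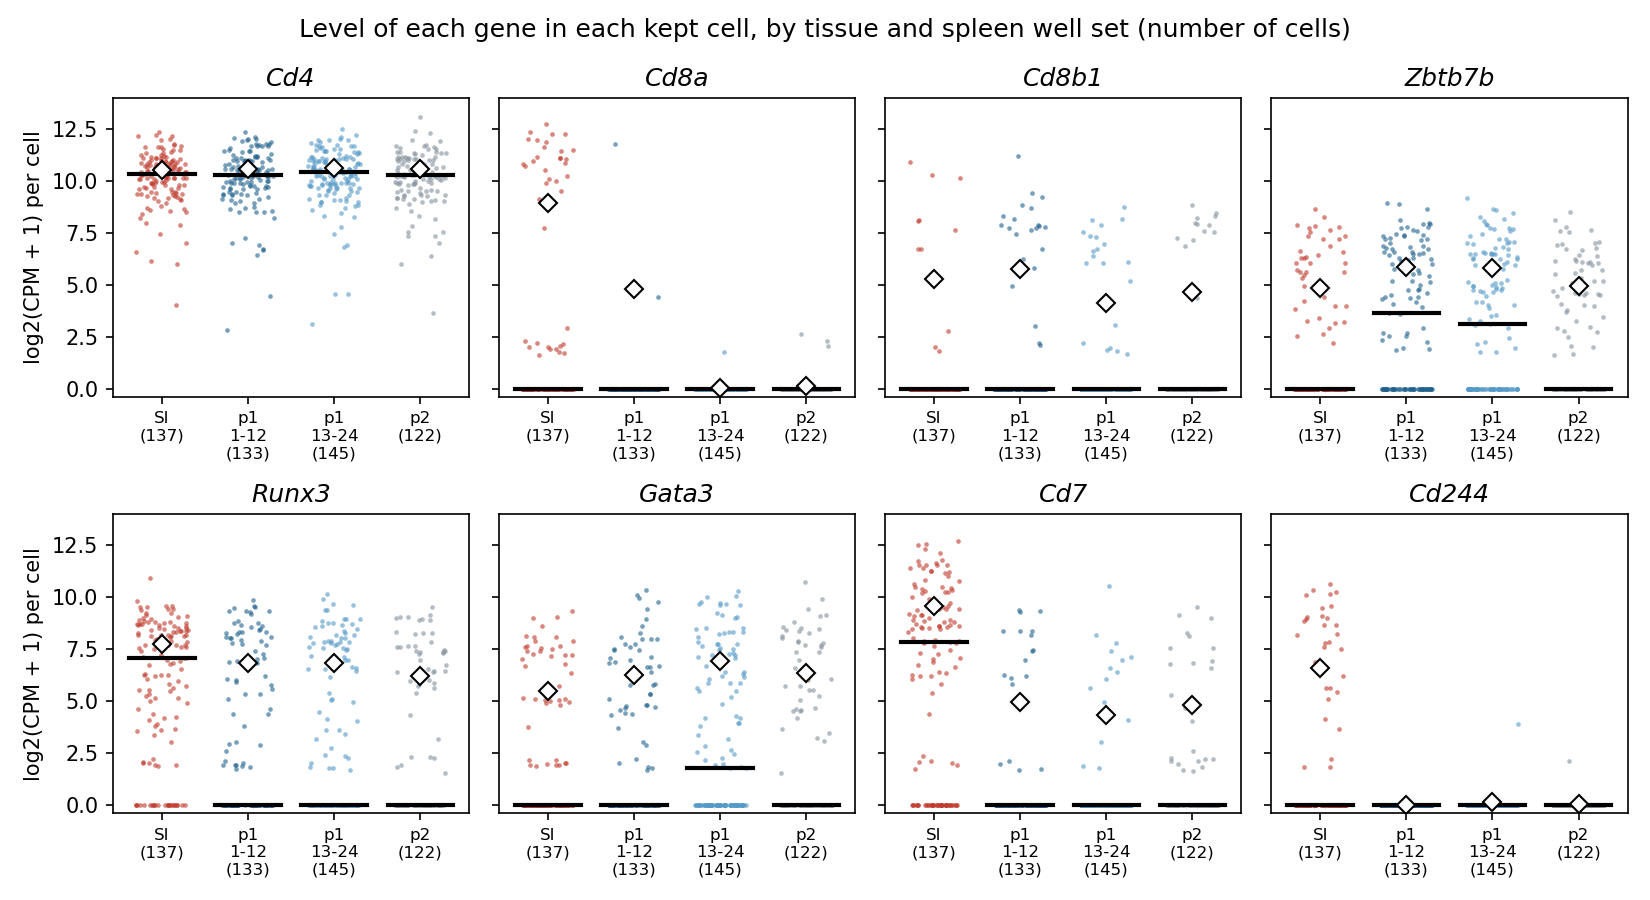
Each point is 1 kept cell, the y axis is log2(CPM + 1), the bar is the median and the diamond the log2 of (mean CPM + 1), for the SI and the Sp sets p1 columns 1-12, p1 columns 13-24 and p2, with the number of cells under each set. Cd4 lies at one height in all sets, Cd244 passes 10 reads in 20.4% of SI and in no Sp cells, and Cd8a in SI leaves a gap between 2 and 82 reads.

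Zbtb7b was found in a smaller share of gut cells than of Sp cells on p1. In SI cells it ran from 0 to 401.1 CPM with a median of 0, and 29 cells had at least 10 reads (21.2%, 14.7 to 29). The shares were 41.4% (32.9 to 50.2) in p1 columns 1-12, 38.6% (30.7 to 47.1) in p1 columns 13-24 and 25.4% (18 to 34.1) in p2. The interval of the SI lies below those of both p1 sets and overlaps that of p2. After thinning each cell to 200000 reads the shares were 15.9% in the SI and 34.4%, 32.1% and 20.5% in the Sp sets. Mean Zbtb7b was 28.2 CPM in SI cells and 57.6, 54.3 and 30.1 CPM in the respective Sp sets, so the log2 ratio was -1.01, -0.92 and -0.09. Against p2, the Sp set on the plate of the SI cells, mean Zbtb7b was nearly level.

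Runx3 was the factor higher in the gut. Its median was 132.3 CPM in SI cells (range 0 to 1921) and 0 CPM in each Sp set. At least 10 Runx3 reads were found in 67.2% of SI cells (58.6 to 74.9) and in 36.1%, 35.9% and 31.1% of the Sp sets, whose intervals all end below that of the gut. Runx3 averaged 216.7 CPM in the SI against 112.2, 111.9 and 72.2 CPM in the Sp sets, with log2 ratios of 0.94, 0.95 and 1.57, and 1.11 against all Sp.

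Gata3 was lower in the gut by mean but not clearly by share. Gata3 averaged 44.3 CPM in the SI against 75.4, 119.1 and 81.7 CPM in the Sp sets, and single cells reached 642.7 CPM in the gut and 1703 CPM in the Sp. At least 10 Gata3 reads were found in 21.9% of SI cells (15.3 to 29.8), against 26.3%, 36.6% and 27% of the Sp sets, whose intervals all overlap that of the gut. The log2 ratio against all Sp was -1.06, and it came within 2-fold, at -0.89, with TMM scaling. The median log2 ratio of all genes was -0.23 unscaled and -0.07 with TMM scaling.

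Both surface receptor transcripts were far higher in the gut. Cd7 ran from 0 to 6766 CPM in SI cells with a median of 225.6, and its median was 0 CPM in each Sp set. Cd7 passed 10 reads in 88 SI cells (64.2%, 55.6 to 72.2) and in 10.5%, 7.59% and 9.84% of the Sp sets. Its mean was 771.7 CPM in the gut and 29.8, 19.3 and 27.2 CPM in the Sp sets, log2 ratios of 4.65, 5.25 and 4.77.

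Cd244 was close to absent from the Sp cells. SI cells ran from 0 to 1611 CPM with a mean of 96.3, and 28 had at least 10 reads (20.4%, 14 to 28.2). Of the 400 Sp cells 0 did, a count that allows up to 0.75%, and all Sp cells together held 4 Cd244 reads (Poisson interval 1.09 to 10.2) against 4618 in the gut. No Cd244 read was found in p1 columns 1-12. The limit of 3 reads gives a summed level 1662-fold lower there than in the gut, but it treats reads as independent. All Cd244 reads of the gut came from 33 cells, so that fold is no lower bound. By share of cells, the count of 0 in that set allows up to 2.26%, against 20.4% in the gut.

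Counted together, 5 of the 8 genes passed a 2-fold ratio between SI and all Sp, 4 higher in the gut (Cd8a, Runx3, Cd7, Cd244) and 1 lower (Gata3). Of the 8384 genes with a mean of at least 10 CPM, 23.4% passed it either way, 6.51% higher and 16.9% lower. With TMM scaling the share of these calls that were higher went from 27.8% to 38.7%, and Gata3 dropped out of the 5. Against p1 columns 1-12, 3 of the 8 were past 2-fold higher (Cd8a, Cd7, Cd244) and Zbtb7b lower, where 26.1% of all genes passed, 8.86% higher and 17.2% lower. Against p1 columns 13-24, 4 were higher (the same 3 and Cd8b1) and Gata3 lower, where 25.2% passed, 7.98% higher and 17.2% lower. Against p2, 4 were higher (the same 3 and Runx3) and 0 lower, where 26.7% passed, 8.59% higher and 18.1% lower. All 8 genes passed the filter on low values. Cd8a and Cd244, at 8.98 and 0.0427 CPM over all Sp cells, did so through the gut cells and could not have come out lower. Cd8a, Cd8b1 and Cd244 had a median of 0 CPM in every set, so their means rest on the minority of cells with reads. Since the genes were chosen with these ratios known, the count is no sign of how often such genes differ.

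**Figure D2:**
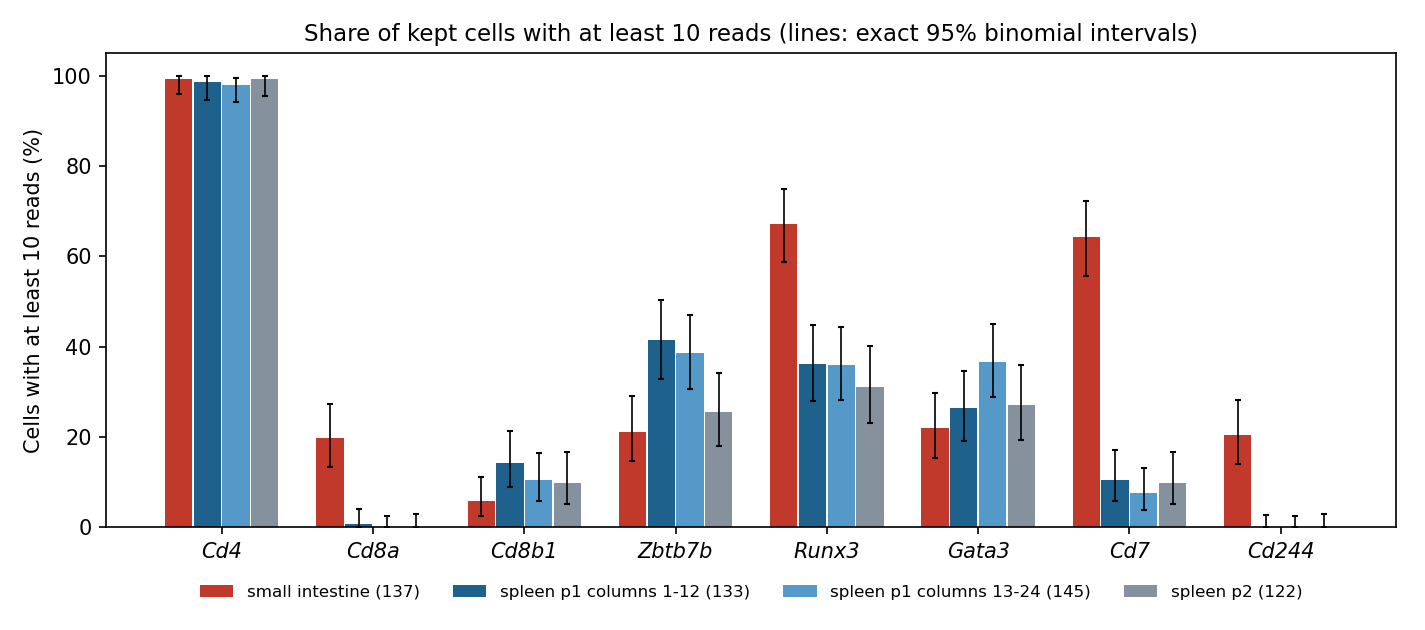
The y axis is the percent of kept cells with at least 10 reads of each gene (x axis) in the SI and the 3 Sp sets, and lines are exact 95% binomial intervals. Runx3 (67.2%) and Cd7 (64.2%) stand above all Sp sets in the gut, Zbtb7b (21.2%) stands below both p1 sets, and Cd4 is near the top everywhere.

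Between the tissues, the lists around these genes gave the following counts, beside the 6.51% higher and 16.9% lower of all genes. Of 12 compared cytotoxic effectors 8 were past 2-fold higher in the SI and 0 lower (median log2 2.29). Of 13 compared receptors of intraepithelial and natural killer cells 9 were higher and 0 lower (median 2.11). Among these receptors Itga1, the CD49a integrin chain, averaged 179.4 CPM in the SI and 0.00679 CPM in the Sp. Itga1 passed the filter through gut cells and could not have come out lower, so the 0 lower was fixed in part. Gzma, granzyme A, averaged 36732 CPM in SI and 33.9 CPM in Sp cells, and Itgae, the CD103 integrin chain that binds E-cadherin, 518.9 and 13.8 CPM. Of 12 compared CD4-lineage genes 4 were lower and 0 higher (median -0.24): Tcf7, Myb, Lef1 and Tox, with log2 ratios of -6.86, -4.22, -2.79 and -1.56. Tcf7 and Myb averaged 2.27 and 4.59 CPM in the SI and passed the filter through Sp cells, so they could not have come out higher. Tcf7 and Lef1 encode factors of naive and memory T cells, and Tox acts in the thymus and in chronically stimulated T cells. Of 8 compared CD8-lineage and Runx genes 2 were higher and 0 lower (median 0.67): Id2 (1.74), an inhibitor of E proteins, and Runx1 (1.14), a relative of Runx3. Tbx21 went the other way, at -0.89, within 2-fold. On the list of SLAM family genes and adaptors, 2 of 9 were higher, Slamf7 (2.10) and Sh2d2a (1.17), and Slamf6 was lower (-3.67). Sh2d2a encodes a T-cell adaptor that is not a SLAM family member. Of 13 genes of T-cell receptor signalling Cd2 (-2.21) and Cd28 (-1.71) were lower and 0 higher (median -0.25). Il17a of the Th17 list averaged 178.1 CPM in SI and 4.57 CPM in Sp cells. Areg of the Th2 list was higher in the SI by a log2 ratio of 4.92. All other compared genes of the Th2 list were past 2-fold lower in the SI. Il4, Il5 and Pparg had no read in the SI and passed the filter through Sp cells alone, and Il22 had no read in the Sp, so these lists are given without counts or medians.

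Within the SI, cells were then divided by Cd8a reads into 27 Cd8a-positive cells (at least 10 reads) and 98 Cd8a-zero cells (no read), leaving 12 cells with 1 or 2 reads outside. The values that define this divide are a description: the lowest Cd8a-positive cell had 82 reads, and the cells just outside had 2 reads (1 cell) or 1 read (11 cells). Cd8a-positive cells came from 11 of the 12 well columns of the SI, at most 4 from a column. Their libraries had a median of 338019 reads (at most 580400) and 2985 genes (at most 4070), against 321646 reads (at most 434737) and 3142 genes (at most 5222) in Cd8a-zero cells. The part of library size in the results by class was not tested.

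Cd8a-positive cells had Cd4 transcripts at like levels to the other cells. Their Cd4 level ran from 15.5 to 5347 CPM with a median of 1140, and that of Cd8a-zero cells from 70.2 to 4219 CPM with a median of 1312. The means were 1510 and 1474 CPM, a log2 ratio of 0.03, and 26 of 27 Cd8a-positive cells had at least 10 Cd4 reads. The remaining cell had 6. Per kilobase of exon, Cd8a exceeded Cd4 in 18 of the 27 cells, with means of 792.4 and 485.8 CPM per kilobase.

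Most kept Cd8a-positive cells had reads of the alpha chain gene without those of the beta chain gene, and protein was not measured. Among SI cells set aside as S or G2M, 5 of the 7 with at least 10 Cd8a reads passed 10 Cd8b1 reads. Cd8b1 had no read in 20 of the 27 cells, 1 read in 2 cells and at least 10 reads in 5 cells (18.5%, 6.30 to 38.1). Those 5 cells had 78 to 789 Cd8b1 reads beside 605 to 2325 Cd8a reads, so Cd8b1 reached 12.2 to 61.7% of the Cd8a reads of a cell. Cd8b1 averaged 179.7 CPM in Cd8a-positive and 4.2 CPM in Cd8a-zero cells, where 3 of 98 cells had at least 10 reads. The log2 ratio of 5.12 belongs to those 5 cells, and it turned to -1.92 without them. The 5 cells had Cd7 levels of 1382 to 6766 CPM and a median Runx3 of 17.9 CPM, against a median Runx3 of 314.5 CPM in the other 22, with ranges that overlap.

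Zbtb7b gave no read in any of the 27 Cd8a-positive cells. In Cd8a-zero cells it ran from 0 to 401.1 CPM, with at least 1 read in 35 of 98 cells (35.7%) and at least 10 in 24 (24.5%, 16.4 to 34.2), 1128 reads in all (Poisson interval 1063 to 1196). The share of 0 of 27 allows up to 11.1%, and the exact interval reaches 12.8%, below the 16.4% at which that of Cd8a-zero cells begins. The limit of 3 reads over the group gives a summed level 115.9-fold lower, but it treats reads as independent. All Zbtb7b reads of Cd8a-zero cells came from 35 cells, so that fold is no lower bound, and the shares of cells are the safer measure. Of all 7936 genes compared, at any breadth of expression, 2.38% had no read in the 27 cells. Zbtb7b passed the filter on low values through the other SI cells alone. The 12 cells with 1 or 2 Cd8a reads resembled the Cd8a-zero cells in this respect, with at least 1 Zbtb7b read in 58.3% and at least 10 in 5 of 12.

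Runx3 differed less. It ran from 0 to 1921 CPM in Cd8a-positive cells with a median of 312.4, and from 0 to 889.2 CPM in Cd8a-zero cells with a median of 107.9. The means were 311.5 and 183.6 CPM, a log2 ratio of 0.76, within 2-fold. The shares with at least 10 Runx3 reads were near equal, at 63% (42.4 to 80.6) and 66.3% (56.1 to 75.6), and the top cell held 24.2% of the Runx3 reads of the Cd8a-positive cells. Gata3 means were 37.9 and 42.4 CPM, a log2 ratio of -0.16, with at least 10 reads in 4 of 27 and 24 of 98 cells. A single cell held 51.3% of the Gata3 reads of the Cd8a-positive group.

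Cd7 and Cd244 went with Cd8a. Cd7 was found at 10 or more reads in 26 of 27 Cd8a-positive cells (96.3%, 81 to 99.9) and in 54 of 98 Cd8a-zero cells (55.1%, 44.7 to 65.2). Its median was 2315 CPM in the first (range 0 to 6766) and 82.5 CPM in the second (range 0 to 3048), and the means of 2354 and 374.8 CPM give a log2 ratio of 2.65. Cd244 passed 10 reads in 14 of 27 cells (51.9%, 31.9 to 71.3) and in 13 of 98 (13.3%, 7.26 to 21.6). Its means were 334.3 and 41.7 CPM, a log2 ratio of 2.97, and the ranges overlap, with tops of 1611 and 770.0 CPM. Of the 7 genes other than Cd8a, 4 passed 2-fold between the Cd8a classes, 3 higher (Cd8b1, Cd7, Cd244) and 1 lower (Zbtb7b), where 26.1% of the 7936 genes with a mean of at least 10 CPM did, 8.34% higher and 17.7% lower. The median log2 ratio of all those genes was -0.10. Cd8b1, at 4.2 CPM in Cd8a-zero cells, passed the filter through Cd8a-positive cells and could not have come out lower. Zbtb7b passed it through the other SI cells and could not have come out higher.

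**Figure D3:**
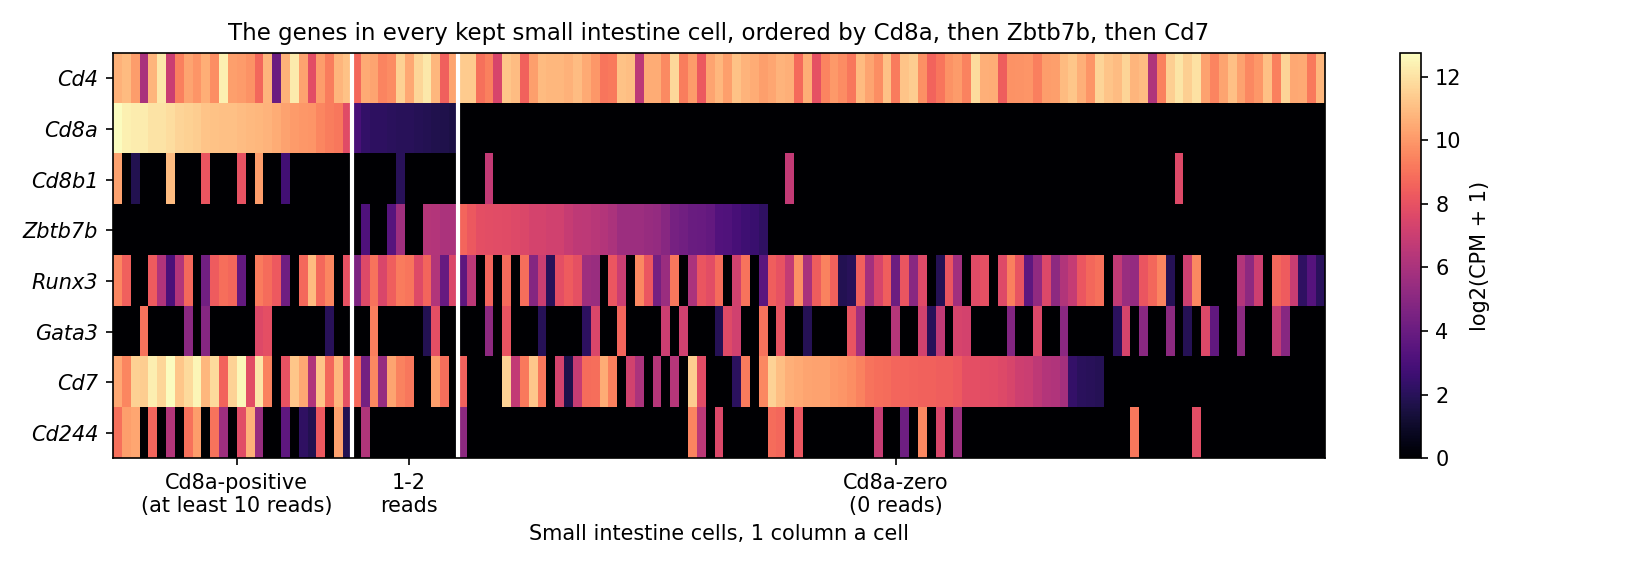
Each column is 1 of the kept SI cells and each row a gene, with colour for log2(CPM + 1), and white lines divide cells with at least 10 Cd8a reads, with 1 or 2 reads and with none. The Zbtb7b row is black over all 27 Cd8a-positive cells, the Cd7 row is lit in 26 of them, and the Cd4 row is lit throughout.

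Other pairs of members were counted in the same cells. Of the 29 cells with at least 10 Zbtb7b reads 1 had 10 Cd244 reads (3.45%, 0.0873 to 17.8), against 25% (17.2 to 34.3) of the other cells. Those other cells include all Cd8a-positive cells, so this partly repeats the divide by Cd8a. Among Cd8a-zero cells alone the shares were 4.17% (0.105 to 21.1) and 16.2% (8.67 to 26.6), with intervals that overlap. Cd7 and Runx3 were found in like shares with and without Zbtb7b: Cd7 passed 10 reads in 62.1% of Zbtb7b cells and 64.8% of the others, and Runx3 in 65.5% and 67.6%. Cd7 was found with Cd244, in 24 of the 28 cells with at least 10 Cd244 reads (85.7%, 67.3 to 96) against 58.7% (48.9 to 68.1) of the others. In Cd8a-zero cells alone these shares were 76.9% (46.2 to 95) and 51.8% (40.7 to 62.7), again with overlapping intervals.

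Across the kept SI cells the Spearman correlation of CPM was 0.50 between Cd8a and Cd7, 0.42 between Cd8a and Cd244, 0.39 between Cd7 and Cd244 and 0.33 between Cd8a and Cd8b1. It was -0.23 between Cd8a and Zbtb7b and 0.14 between Cd8a and Runx3. These points share one tissue and many zeros, and Cd8a itself had a correlation of 0.20 with the reads of a cell. Of 7935 other genes, those most like Cd8a by this measure were Cd7, Mras (0.48), Itgae (0.47), Cd160 (0.45) and 2900026A02Rik (0.44). For Zbtb7b they were Ctla2b (0.34), Ms4a4b (0.30) and Dos (0.28), and for Runx3 Iah1 (0.37), H2afj (0.30) and Trappc10 (0.30).

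Across all genes, 662 were past 2-fold higher and 1407 past 2-fold lower in Cd8a-positive cells. Beside Cd8a, Cd244 and Cd7, the genes with the largest ratios among those with at least 10 reads in 50% or more of Cd8a-positive cells were Cela1, Cd160, Mctp2, Tnfsf10, Ctsw, Rgs3 and Cd200r1. Cd160, a receptor of cytotoxic and intraepithelial lymphocytes, had a mean of 773.0 against 158.6 CPM (log2 2.28) and passed 10 reads in 81.5% against 26.5% of cells. Tnfsf10, which encodes the death ligand TRAIL, had 393.9 against 92.9 CPM (log2 2.07). Cd200r1, an inhibitory receptor, had 256.7 against 79.3 CPM (log2 1.68), and Cela1, an elastase gene, 231.5 against 39.7 CPM (log2 2.52). For each of the 7 the ranges overlap, with Cd8a-positive cells at 0 CPM.

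The genes lowest in Cd8a-positive cells, among those found in 50% or more of Cd8a-zero cells, were Capg, Ramp3, Podnl1, Sepp1, Nt5e, Cdkn1a, Ckb, Malt1, Sdcbp2 and Mdm2. Capg, an actin-capping protein, had 26.7 against 553.7 CPM (log2 -4.32), with at least 10 reads in 14.8% against 62.2% of cells. Ramp3, a partner of the calcitonin receptor-like receptor, had 10.1 against 206.1 CPM (log2 -4.22). Nt5e, which encodes the ectoenzyme CD73, had 82.9 against 490.2 CPM (log2 -2.55), and Cdkn1a and Mdm2, both targets of p53, had log2 ratios of -2.39 and -2.03. In each of these 10 genes the median was 0 CPM in Cd8a-positive cells, and the ranges overlap. A median above 0 CPM in Cd8a-zero cells was fixed by the rule that chose the genes. Counting Cd8a-positive cells from 1 read brought Podnl1, Nt5e, Ckb, Malt1 and Sdcbp2 within 2-fold (-0.94 to -0.71), and taking all cells did so for Mdm2 (-0.68). The same start at 1 read took Capg to -1.11, Ramp3 to -1.57, Sepp1 to -1.23 and Cdkn1a to -1.23.

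**Figure D4:**
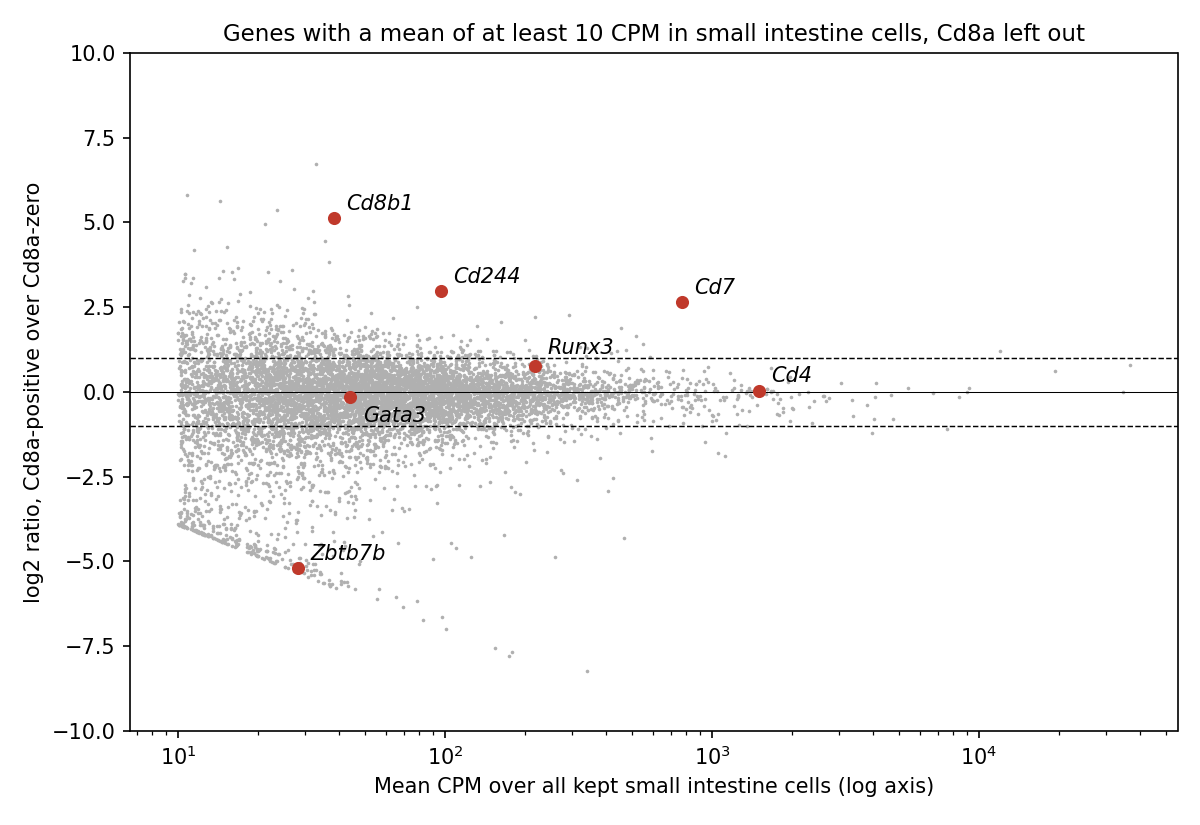
The x axis is the mean CPM of a gene over all kept SI cells (log axis), the y axis the log2 ratio of Cd8a-positive over Cd8a-zero cells, and dashed lines mark 2-fold, with the 7 other genes in red. Zbtb7b (-5.20) lies on the lower diagonal, made by the 2.38% of genes with no read in the 27 cells, whose plotted value is no bound, while Cd7, Cd244 and Cd8b1 lie above the cloud.

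Among genes with known parts in cytotoxic cells and on intraepithelial lymphocytes, more were past 2-fold higher than lower in Cd8a-positive cells. Of 15 compared receptors of intraepithelial and natural killer cells, 8 were past 2-fold higher and 2 lower, where 8.34% of all genes were higher and 17.7% lower. The median log2 ratio was 1.01 against -0.10 for all genes. Itgae had a mean of 1134 against 360.2 CPM (log2 1.65) and passed 10 reads in 96.3% against 49% of cells. Klrd1 and Klrc1, which encode CD94 and NKG2A, had log2 ratios of 1.95 and 1.98 with 10 reads in 37% and 18.5% of Cd8a-positive cells. Crtam had the largest ratio of the list (2.76), with 10 reads in 1 of 27 and 2 of 98 cells. Kit (-3.65) and Hopx (-1.24) were the 2 lower genes.

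Of 12 compared cytotoxic effectors, 3 were past 2-fold higher and none lower (median log2 0.66), beside 8.34% and 17.7% of all genes. Ctsw, a cathepsin of cytotoxic cells, had 1109 against 297.7 CPM (log2 1.89), Gzmk 623.4 against 253.6 CPM (log2 1.29) and the chemokine gene Ccl5 21876 against 9483 CPM (log2 1.21). Gzma and Gzmb, the granzymes A and B, had log2 ratios of 0.78 and 0.62, within 2-fold, and passed 10 reads in all 27 Cd8a-positive cells against 81.6% and 86.7% of Cd8a-zero cells.

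The lineage lists were near the middle. Of 8 compared CD8-lineage and Runx factors none passed 2-fold (median log2 -0.09). Tbx21, which encodes T-bet, came closest at 0.97, with 186.7 against 95.1 CPM, and with TMM scaling 1 of the 8 was past 2-fold. Of 10 compared CD4-lineage genes 2 were past 2-fold lower and none higher (median log2 -0.37), a share near the 17.7% lower of all genes: Cd40lg, the CD40 ligand of helper cells (34.6 against 81.3 CPM, log2 -1.21), and Tcf12, an E protein (56 against 119.9 CPM, log2 -1.09). Satb1, a chromatin organiser needed for lineage choice in the thymus, had a log2 ratio of -0.76.

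Of 13 compared genes of T-cell receptor signalling, Cd2 (log2 -1.94) and Cd28 (-1.17) were past 2-fold lower and none was higher, with a median of 0.03, again near the 17.7% lower of all genes. The genes of the CD3 chains were level, with log2 ratios of 0.12 for Cd3d, 0.03 for Cd3e and 0.09 for Cd3g, and Cd3e passed 10 reads in all 27 Cd8a-positive cells. On the list of SLAM family genes and adaptors, 1 of 9 compared genes was past 2-fold lower and 0 higher, with a median of -0.00013. That was also no larger a share than among all genes. The lower gene was Slamf6, with no read in Cd8a-positive cells against 1576 reads in Cd8a-zero cells, where only 9 of 98 cells passed 10 reads. The count of 0 among 27 allows up to 11.1% of cells, so the shares cannot be told apart. Slamf6 passed the filter through cells outside the Cd8a-positive class and could not have come out higher. Cd48, which encodes the ligand of CD244, was level at 785.1 against 716.2 CPM.

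Most genes of the Th17 list had 0 or 1 read in Cd8a-positive cells. They passed the filter through the Cd8a-zero cells alone, so they could not have come out higher, and no count or median of the list is given. Il17a, the hallmark cytokine of Th17 cells, had 1 read in the Cd8a-positive cells (Poisson interval 0.0253 to 5.57) against 6996 reads in Cd8a-zero cells, where 19 of 98 cells passed 10 reads. Il1r1 and Ccr6 had no read. The limit of 3 reads gives 413.5-fold and 109.6-fold lower, which are no lower bounds, since reads of a gene come together within cells. Rora was the exception with a log2 ratio of -0.43. In the Th2 list the same held for Ccr4 (0 against 679 reads) and Ccr8 (2 reads, Poisson interval 0.242 to 7.22, against a mean of 14.6 CPM), while Areg was within 2-fold at 0.52. Of the 8 Th2 genes listed, Il4, Il5, Il13 and Pparg had no read in either class. Ratios of genes with 0 to 2 reads in the 27 cells depend on the pseudocount and are imprecise in size.

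**Figure D5:**
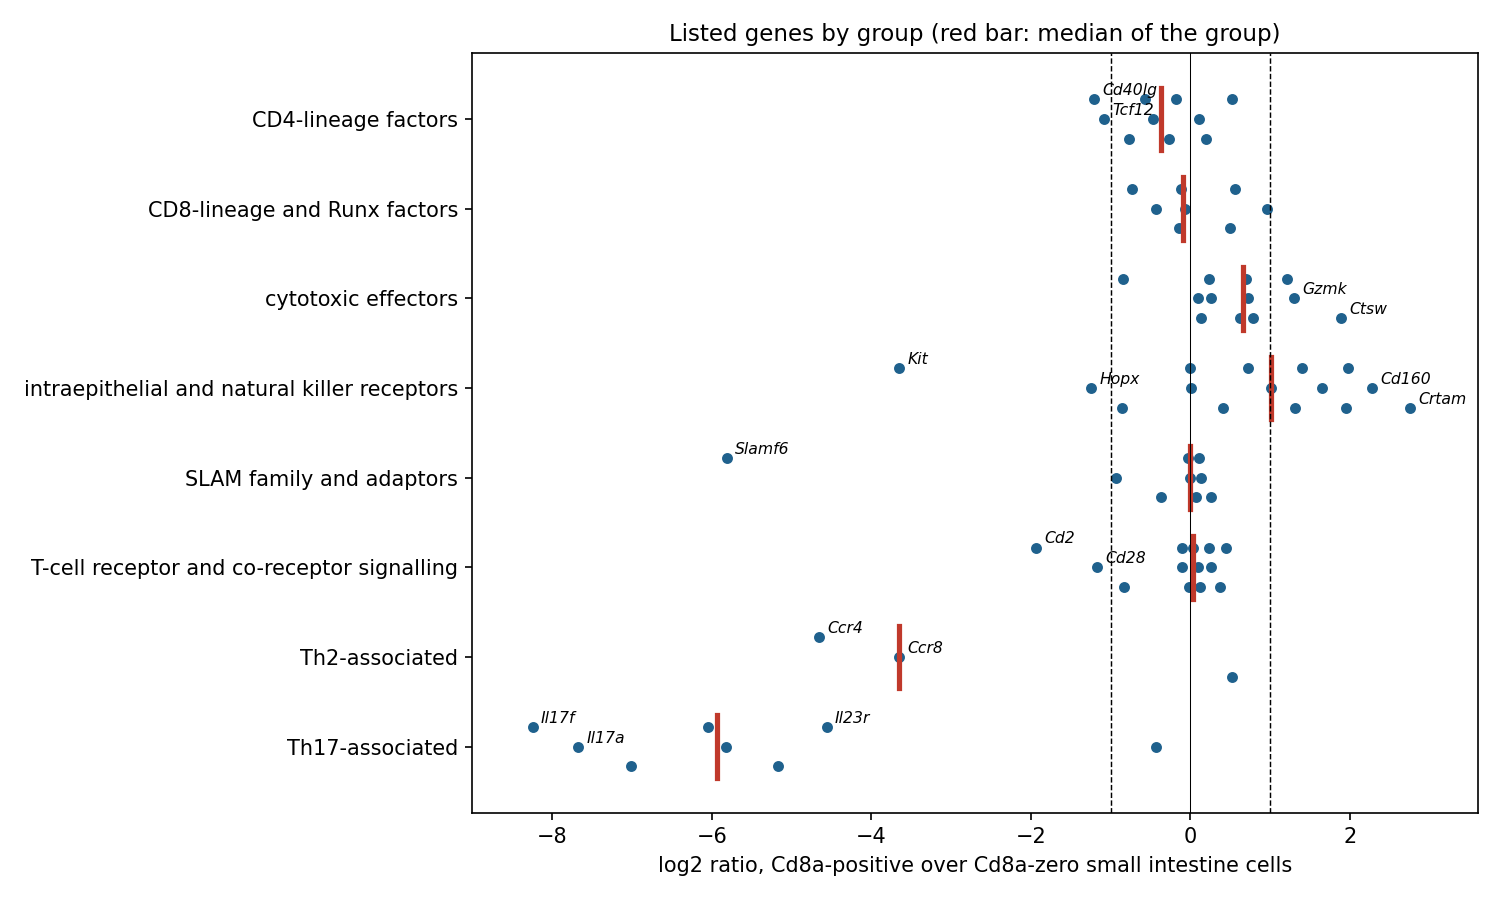
The x axis is the log2 ratio of Cd8a-positive over Cd8a-zero SI cells for each compared gene of 8 lists (y axis), the red bar is the median of the list and dashed lines mark 2-fold. The receptors of intraepithelial and natural killer cells lie to the right (median 1.01) with the factor lists around 0 (medians -0.37 and -0.09). Th2 and Th17 genes with 0 to 2 reads in Cd8a-positive cells passed the filter through Cd8a-zero cells alone and had to lie on the left.

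Markers of other cell types were at like shares in both Cd8a classes. At least 10 reads of any of 7 epithelial markers were found in 3 of 27 Cd8a-positive cells (11.1%, highest sum 1209 CPM) and in 13 of 98 Cd8a-zero cells (13.3%, highest sum 735.5 CPM), with a median sum of 0 CPM in both. Without those cells the log2 ratios of Cd7, Cd244, Cd8b1 and Zbtb7b were 2.67, 3.17, 5.12 and -5.23. All 5 natural killer and innate lymphoid markers were at 0 reads in every SI cell. B-cell markers, 3 of 5 of which had no read in Cd8a-positive cells, passed 10 reads in 2 and 7 cells (highest sums 300.7 and 462.1 CPM), and myeloid markers in none of either class (highest sums 9.68 and 32 CPM). Of the 6 gamma-delta T-cell markers only Sox13 was measured, with no read in Cd8a-positive cells, so a gamma-delta origin was not tested beyond this gene.

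Il10, the cytokine gene behind the sort, was lower by mean in Cd8a-positive cells. It passed 10 reads in all 27 of them and in 94.9% of Cd8a-zero cells, at means of 1379 and 2602 CPM. Itga1, the CD49a integrin chain, passed 10 reads in 81.5% (61.9 to 93.7) against 31.6% (22.6 to 41.8) of cells, and it had no cell above 10 reads in the Sp. Foxp3 passed 10 reads in none of 27 and 4 of 98 cells, and Mki67, a proliferation marker, in 25.9% and 23.5%.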

How the data were processed

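SMART-seq2 libraries, full-length cDNA without molecular identifiers, were made from single IL-10+ CD4+ T cells. The authors aligned paired-end reads with STAR in 2-pass mode and deposited raw read counts per gene, 1 column a cell (764 cells, 23997 gene rows plus a reporter row). Their methods name the genome Mm8 and the labels mm10. The counting tool and annotation are not given in the sources used here. 88 rows join several genes. No column was left unused. The 8 members, the gene lists and the rules were chosen with earlier results of these data known.

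After the stated filter, but without its criterion on mitochondrial genes, which was not applied here, cells over 3 median absolute deviations below the tissue median of log reads or log genes were removed (limits 170584 reads and 1765 genes in the small intestine (SI), 161898 and 1793 in the spleen), then cells that cyclone (scran 1.30.0) put in S or G2M. This removed 19 and 34 SI cells, and 31 spleen cells by the first step. No doublet caller was run on singly sorted cells. CPM was computed here from the deposited counts without the reporter row. Ratios used mean CPM + 1, and genes with a mean of at least 10 CPM were compared. With 1 sample a tissue no test, SE or p-value was computed. The code was tested on simulated data with known folds. Thinned shares left out 5 SI and 23 spleen cells under 200000 reads. Beyond the 8 members, the genes named are the 10 largest ratios each way with at least 10 reads in 50% of cells of the higher class, up to 4 examples a list and the nearest by Spearman correlation; other list genes named for their function were added after values were seen. Of 124 list genes 119 were measured, 2 by an older symbol. Alternatives covered cells, depth, pseudocount, TMM (edgeR 4.0.16) and DESeq2 1.42.0 factors, summed reads, gene filters, thresholds and spleen sets. Positions are from GENCODE M21 and promoters from RefSeq, both GRCm38. Software was R 4.3.3 and Python 3.11.15 with numpy 2.4.6, pandas 2.3.3, scipy 1.17.1 and matplotlib 3.10.9. One gene of the Th17 list is not reported here by name.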

Additional observations from a re-analysis of the deposited data

Results flagged for a closer look

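Cells set aside before the comparisons also held Cd8a. Of the 34 SI cells that cyclone put in S or G2M, 7 had at least 10 Cd8a reads (20.6%, 8.70 to 37.9), a signal in cells outside the comparisons as reported, which enter only the alternatives that keep them. Those 7 cells had up to 1435 Cd8a reads, no read of Zbtb7b, at least 10 Cd8b1 reads in 5, at least 10 Cd7 reads in 6 and at least 10 Cd244 reads in 5. Zbtb7b passed 10 reads in only 4 of all 34 cells (11.8%), so its absence from 7 cells says little. Of the spleen cells in these phases 0 had 10 Cd8a reads, which allows up to 2.10%.

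The row of the eGFP reporter, which no comparison uses, passed 10 reads in 63% of Cd8a-positive cells (42.4 to 80.6) and in 66.3% of Cd8a-zero cells (56.1 to 75.6), at means of 106.7 and 168.5 CPM.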

How the results depend on the processing

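No paired analysis was possible because the labels give no replicate numbers and each tissue is 1 sample. Of the values of the 12 main results under alternatives, 98 stayed within 1.5 times or within the interval and 7 did not. The share of small intestine cells with Cd8a was 28.5% at a threshold of 1 read, and that of Cd8a-positive cells with Cd4 was 100% at 1 read. Genes past 2-fold between the Cd8a classes went from 662 higher (8.34% of those compared) and 1407 lower (17.7%) to 1469 (10.4%) and 3041 (21.6%) with no filter on genes. They came to 3.85% and 9.59% at a mean of at least 50 CPM, and to 5.12% higher with a pseudocount of 10 CPM. Without the 5 Cd8a-positive cells with Cd8b1, an alternative chosen after seeing the data like that on epithelial markers, the Cd8b1 ratio turned to -1.92. Of 26 named ratios past 2-fold, 25 kept their direction under all 13 or 14 alternatives and 17 stayed past 2-fold. Gata3 between tissues stayed past it in 6 of 13 (-1.41 to -0.76) and Runx3 in 11 of 13 (0.94 to 1.57). Starting Cd8a-positive at 1 read, which adds the 12 cells, gave a Zbtb7b log2 ratio of -1.86. The 4 genes past 2-fold between the Cd8a classes stayed 4 in number under each alternative, and those between tissues were 4 or 5. A count of 0 among the 27 Cd8a-positive cells allows up to 11.1%, and no comparison has replicate samples.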
